A study of Mus musculus with 2 samples.

Results

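The genes described here are those of 2 chemokine axes that bring lymphocytes into tissues. They were listed by name as the ligands Cxcl9, Cxcl10 and Cxcl16 and the receptors Cxcr3 and Cxcr6, and all 5 were found among the 32285 genes of the count matrices. They were followed in live CD45+ cells sorted from liver tumors of a lenvatinib-resistant Trp53KO/MYCOE mouse model of hepatocellular carcinoma (HCC), by droplet-based 3′ scRNA sequencing with unique molecular identifiers (UMIs), which count each captured RNA molecule once. There was 1 library from tumors treated with lenvatinib, an inhibitor of several receptor tyrosine kinases, and 1 from tumors that received palbociclib beside it, an inhibitor of CDK4 and CDK6 (combo). In both groups the tumors were made in young male wild-type C57BL/6J mice by hydrodynamic injection of plasmids for human MYC and a guide RNA against Trp53 together with sleeping beauty transposase, and all mice had first received lenvatinib alone, so the lenvatinib library is not an untreated control. Hydrodynamic injection delivers the plasmids to hepatocytes, and the cells measured here were immune cells of the host. The number of mice behind each library is not given in the sources used here. With 1 library per group no test between treatments was possible, and library, batch and treatment cannot be told apart. The question was therefore which cells held each ligand and receptor, and how far the levels in the 2 libraries lay apart relative to counting error and to all other genes.

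CXCL9 and CXCL10 are small secreted proteins that are induced by interferons and bind the receptor CXCR3 on activated T cells and NK cells. CXCL16 is made as a membrane protein that proteases of the ADAM family can release, and it binds CXCR6, a receptor of resident and effector lymphocytes that is abundant in liver. CXCL9 from type 1 conventional dendritic cells (cDC1) and macrophages is known as a signal that draws CXCR3-bearing CD8 T cells into tumors.

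Cxcl9 (ENSMUSG00000029417) and Cxcl10 (ENSMUSG00000034855) are neighbors on chromosome 5 of GRCm38, on the minus strand, at chr5:92321347-92328079 and chr5:92346638-92348889. These neighbors were spread differently over the cell types described below, although some monocytes or macrophages held both. The 250 bases upstream of each are shown, from RefSeq (GRCm38.p6), 5′ to 3′ on the minus strand. Their part in this spread was not tested. The stretch of Cxcl9 is chr5:92328080-92328329 and that of Cxcl10 is chr5:92348890-92349139. Capitals mark matches, on either strand, to 3 motifs of factors that induce these genes, namely the interferon-stimulated response element (ISRE, GAAA, any 2 bases and GAAA again), the gamma-activated site (GAS, TTCNNNGAA) and the NF-kB motif.
Cxcl9: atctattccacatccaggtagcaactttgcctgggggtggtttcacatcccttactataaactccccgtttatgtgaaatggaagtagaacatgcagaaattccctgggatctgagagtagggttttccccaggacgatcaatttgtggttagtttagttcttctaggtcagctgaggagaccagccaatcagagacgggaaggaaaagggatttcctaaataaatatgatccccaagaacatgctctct
Cxcl10: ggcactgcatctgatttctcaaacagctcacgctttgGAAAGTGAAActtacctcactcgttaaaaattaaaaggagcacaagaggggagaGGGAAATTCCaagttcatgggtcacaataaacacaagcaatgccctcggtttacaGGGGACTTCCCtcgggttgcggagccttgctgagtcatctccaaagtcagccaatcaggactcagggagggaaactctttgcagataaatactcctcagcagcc
The Cxcl10 stretch held 1 ISRE, GAAAGTGAAA at -213 to -204 from the start, and 3 NF-kB matches, of which the pair at -104 to -94 overlaps. The Cxcl9 stretch held no match to these letters. Among 32851 promoter stretches of the same length, 2.98% held the ISRE, 7.02% the GAS and 7.25% the NF-kB motif. A match is a description of letters, and no match says only that these letters are not in this window. The stretches of Cxcr3 and Cxcr6 held none of the 3 motifs. Cxcl16 (ENSMUSG00000018920) lies at chr11:70453983-70459984 on the minus strand, Cxcr3 (ENSMUSG00000050232) at chrX:101731535-101734269 on the minus strand, and Cxcr6 (ENSMUSG00000048521) at chr9:123806475-123811760 on the plus strand.

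Cells were grouped by gates on UMIs of marker genes. The lenvatinib library held 14509 barcodes and 98107503 UMIs, of which 14201 cells with at most 6000 genes and at most 25% mitochondrial UMIs were kept, at a median of 5541 UMIs. The combo library held 11989 barcodes and 93583402 UMIs, and 11613 cells were kept at a median of 5754. The libraries shared 49 barcodes. Ptprc, the gene of CD45, had a UMI in 95.4% of cells in both. The gates held, under lenvatinib and combo, 3171 and 2373 CD8 T cells (Cd3e with Cd8b1), 575 and 492 CD4 T cells (Cd3e with Cd4), 2659 and 1781 other T cells (Cd3e with neither or both of Cd4 and Cd8b1), 2693 and 1149 NK cells (Ncr1 without Cd3e), 446 and 1279 monocytes or macrophages (Csf1r, Mo/MF), 59 and 59 cDC1 (Xcr1), and 365 and 383 plasmacytoid dendritic cells (Siglech, pDC). B cells (376 and 463) and neutrophils (394 and 1049) served as background. Cells with gating genes of both lymphoid and myeloid cells (562 and 555) were called conflicting, and 2857 and 1989 cells passed no gate.

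The gates were checked with other markers of the same cells. Of cDC1-gated cells, 62.7% under lenvatinib and 64.4% under combo had a UMI of Clec9a, a receptor for dead-cell actin that marks cDC1. Of CD8-gated cells, 85.2% and 85.7% had a UMI of Cd8a. Of NK-gated cells, 83.1% and 86.8% had a UMI of Klrb1c, the gene of NK1.1. Of Mo/MF-gated cells, 72.0% and 93.0% had a UMI of Lyz2, lysozyme of myeloid cells, but so had 7.98% and 40.6% of B cells, so a single Lyz2 UMI does not mark a myeloid cell under combo. The level of Lyz2 was 6080 and 11300 CPM in the Mo/MF gate against 23.7 and 537 in B cells. In neutrophils it was at 1949 and 5675 CPM, so Lyz2 does not mark Mo/MF cells off from them. C1qa, a complement gene of macrophages, was at 688 and 64.0 CPM in the Mo/MF gate against 12.2 and 1.31 in neutrophils. A gate on Fscn1, the actin bundler of mature dendritic cells, held 44 cells under lenvatinib and 41 under combo, and the data went against that label under combo. There Ccr7, the homing receptor of mature dendritic cells, was at 19.0 CPM (the gene's UMIs as parts per 1e6 of all UMIs of the gate) against 1329 CPM under lenvatinib, Ccl22 and Cacnb3 had no UMI against 89.1 and 324 CPM, and Jchain, the joining chain of secreted antibodies, had a UMI in 28 of 41 cells against 13 of 44 (a gene chosen after its values were seen). These cells are called the Fscn1 gate below. In the other gates the levels of neutrophil genes were higher under combo. Those of plasma-cell genes went both ways, and in cDC1 and Mo/MF cells they differed little. The summed CPM of S100a8, S100a9, Retnlg, Mmp9 and Cxcr2 was 862 and 10384 in CD8 T cells, 4375 and 11379 in CD4 T cells, 4235 and 23025 in other T cells, 1323 and 24471 in NK cells, 685 and 13726 in cDC1 and 16409 and 51324 in the Mo/MF gate under lenvatinib and combo, with S100a8 the most abundant. The summed CPM of the hepatocyte genes Alb, Apoa1, Ttr and Serpina1a was at most 46.0 in these 6 gates. The summed CPM of the plasma-cell genes Jchain, Mzb1, Igkc, Igha and Txndc5, chosen after their values were seen, was 2915 and 1660 in CD8 T, 490 and 5804 in CD4 T, 7270 and 9298 in other T, 4141 and 551 in NK, 473 and 524 in cDC1 and 8787 and 10709 in Mo/MF cells, with Igkc the most abundant. The part of these genes in the ratios was not tested.

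**Figure D1:**
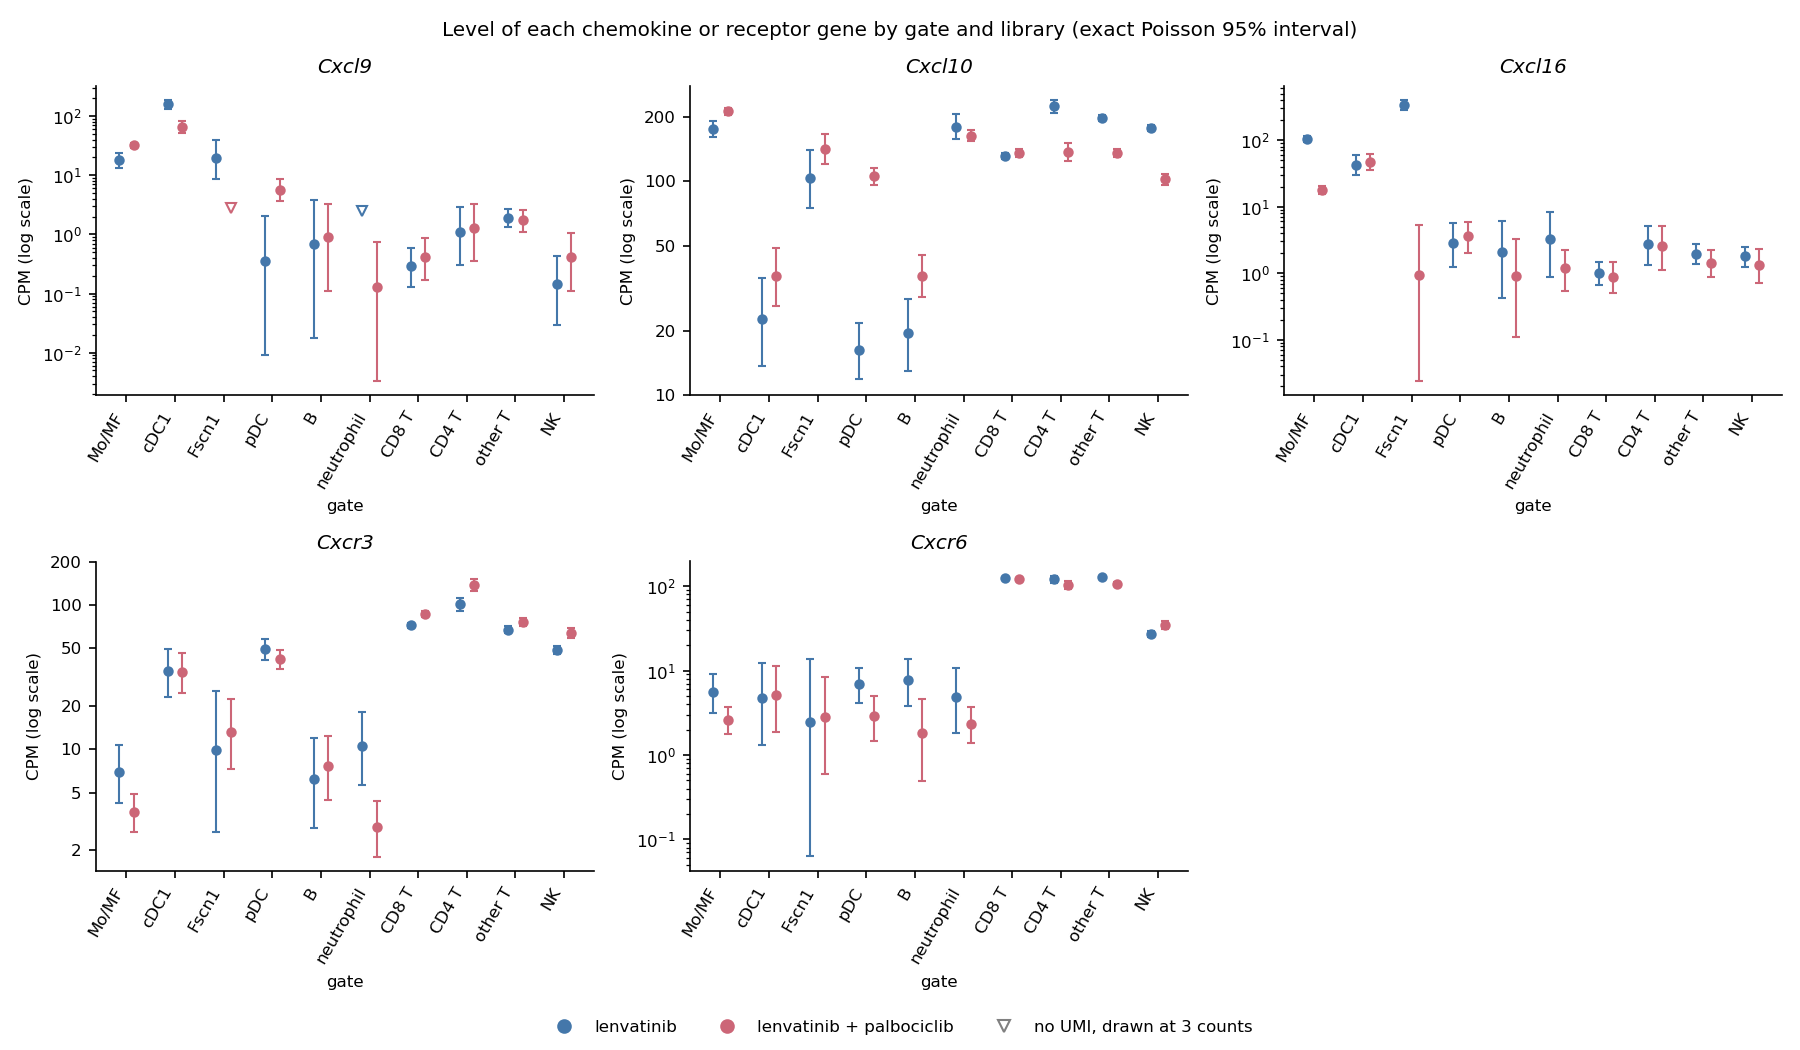
Level of each gene in each gate, in CPM on a log axis, under lenvatinib (blue) and combo (red), with exact Poisson 95% intervals; open triangles mark gates with no UMI, drawn at the level of 3 counts. Cxcl9 was highest in the cDC1 gate, Cxcl16 in the Mo/MF, cDC1 and, under lenvatinib, Fscn1 gates, Cxcl10 was spread over lymphoid and myeloid gates, and Cxcr3 and Cxcr6 were highest in T cells.

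The gates that held most of each gene differed, and for the ligands they differed between libraries. Levels are the gate's summed UMIs relative to its total UMIs (CPM), shares of a library's UMIs follow cell numbers as well as the level per cell, and all intervals are exact 95% intervals for counting error only. Of 481 Cxcl9 UMIs under lenvatinib, 27.4% lay in the cDC1 gate, 10.8% in the Mo/MF gate and 32.2% in conflicting cells. Of 604 Cxcl9 UMIs under combo, 63.4% lay in the Mo/MF gate, 12.7% in the cDC1 gate and 3.97% in conflicting cells. The Mo/MF share was the higher one under combo, and 1 cell held most of it.
Of 853 Cxcl16 UMIs under lenvatinib, 35.2% lay in the Mo/MF gate, 16.1% in the Fscn1 gate and 4.22% in the cDC1 gate. Of 495 under combo, the shares were 43.0%, 0.202% and 11.1%. The Mo/MF gate held the largest share of Cxcl16 in both libraries, although its cells numbered 446 of 14201 with lenvatinib and 1279 of 11613 with combo.
Cxcl10, with 15215 and 13683 UMIs, was held mainly by lymphoid cells under lenvatinib, with 24.2% in NK, 23.6% in other T and 23.2% in CD8 T cells. Under combo these shares were 7.30%, 13.1% and 16.8%, and the Mo/MF gate held 18.6% against 3.35% and neutrophils 9.13% against 1.45%. The shares of the receptors differed less. CD8 T cells held 35.5% and 32.3% of Cxcr3 UMIs and 43.4% and 42.0% of Cxcr6 UMIs, and other T cells held 22.4% and 22.3% of Cxcr3 and 30.1% and 29.1% of Cxcr6.

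**Figure D2:**
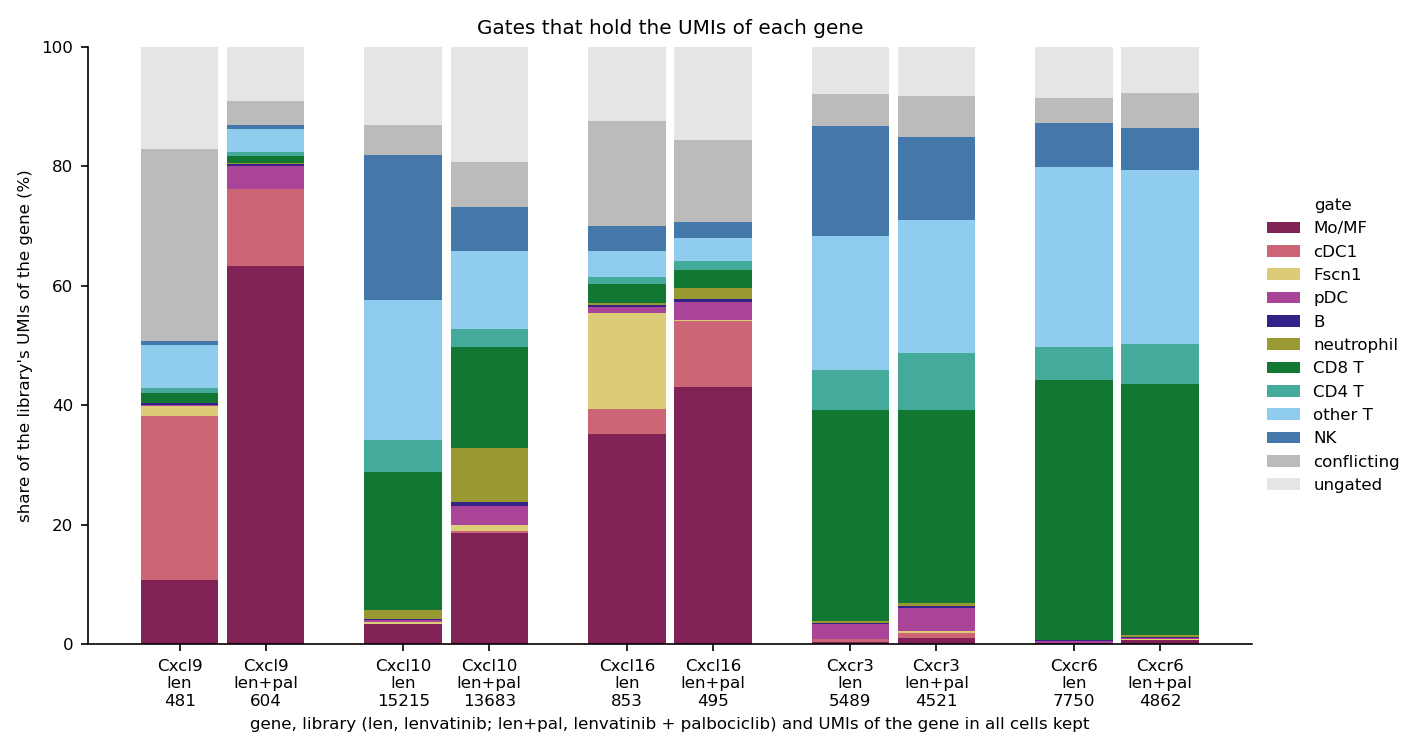
Share (%) of each gene's UMIs held by each gate, with the gene's UMIs in all kept cells written under each bar. The Mo/MF share of Cxcl9 was 10.8% under lenvatinib and 63.4% under combo, whereas the CD8 T share of Cxcr6 was 43.4% and 42.0%.

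Cxcl9 was highest in cDC1. Its level in the cDC1 gate was 158 CPM (132 to 187) under lenvatinib and 66.1 CPM (52.2 to 82.6) under combo, from 132 and 77 UMIs. The ratio of combo to lenvatinib was 0.419 (0.312 to 0.560), and the intervals of the levels did not overlap. The UMIs came from few cells. After thinning each cell to 2000 UMIs, 9.43% (3.13% to 20.7%) and 10.3% (3.89% to 21.2%) of cDC1 had a Cxcl9 UMI, and unthinned 15.3% and 13.6%, at median depths of 14608 and 20617 UMIs. The 2 cells with the most UMIs held 60.6% of the lenvatinib count and 50.6% of the combo count. The cDC1 with a Cxcl9 UMI, 9 under lenvatinib and 8 under combo, held 14.7 and 9.62 UMIs each on average, while the intervals of the shares of cells overlapped. Over the alternatives the ratio ran from 0.140 to 0.488. As background, 0% (up to 1.03%) and 0.223% (up to 1.24%) of B cells had a thinned Cxcl9 UMI, and unthinned 0.266% and 0.432%, at median depths of 3294.5 and 3529 UMIs.

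In the Mo/MF gate Cxcl9 was at 17.98 CPM (13.4 to 23.6) under lenvatinib and 32.1 CPM (28.9 to 35.4) under combo, a ratio of 1.78 (1.33 to 2.43). This direction rested on 1 cell. A single combo cell held 291 of the 383 Mo/MF UMIs and 48.2% of the library's Cxcl9, and the next held 64. The first cell had 12291 UMIs, among them 216 of Lyz2, 42 of the interferon-induced GTPase gene Gbp2, 17 of Cxcl10, 5 of Csf1r and none of C1qa, Xcr1 or Cd3e, and it was not called a doublet. Without the top cell of each library the levels were 13.1 and 7.70 CPM and the ratio turned to 0.586 (0.397 to 0.879). The share of Mo/MF cells with an unthinned Cxcl9 UMI was 3.14% under lenvatinib and 1.02% under combo, at median depths of 4079.5 and 7163 UMIs, and thinned it was 1.37% (0.445% to 3.16%) and 0.507% (0.186% to 1.10%). Of the thinned Mo/MF cells with Cxcl9, 3 of 5 under lenvatinib and 4 of 6 under combo also had a Cxcl10 UMI. If the 2 genes were independent, 0.779 and 1.01 such cells would be seen. Within the gate, cells with at least 2 UMIs of C1qa, a complement subunit of tissue macrophages, held 40 of 52 Cxcl9 UMIs under lenvatinib at 89.9 CPM (64.2 to 122) and 6 of 383 under combo at 18.8 CPM (6.92 to 41.0). These UMIs came from 8 and 2 cells. In cells with no C1qa UMI Cxcl9 was at 3.33 CPM (1.44 to 6.56) from 8 UMIs in 5 cells under lenvatinib and 33.2 CPM (29.9 to 36.7) from 377 UMIs in 11 cells under combo, of which 2 cells held 291 and 64. No order is read from these cells, since without those 2 combo cells the levels were 3.33 and 1.94 CPM, a ratio of 0.582 (0.2497 to 1.51), and without the top 2 cells of both libraries 1.27 and 1.94 CPM from 3 and 22 UMIs, a ratio of 1.53 (0.460 to 7.98). All lymphoid gates, B cells and neutrophils were below 2 CPM in both libraries, and pDC were at 0.362 and 5.72 CPM.

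**Figure D3:**
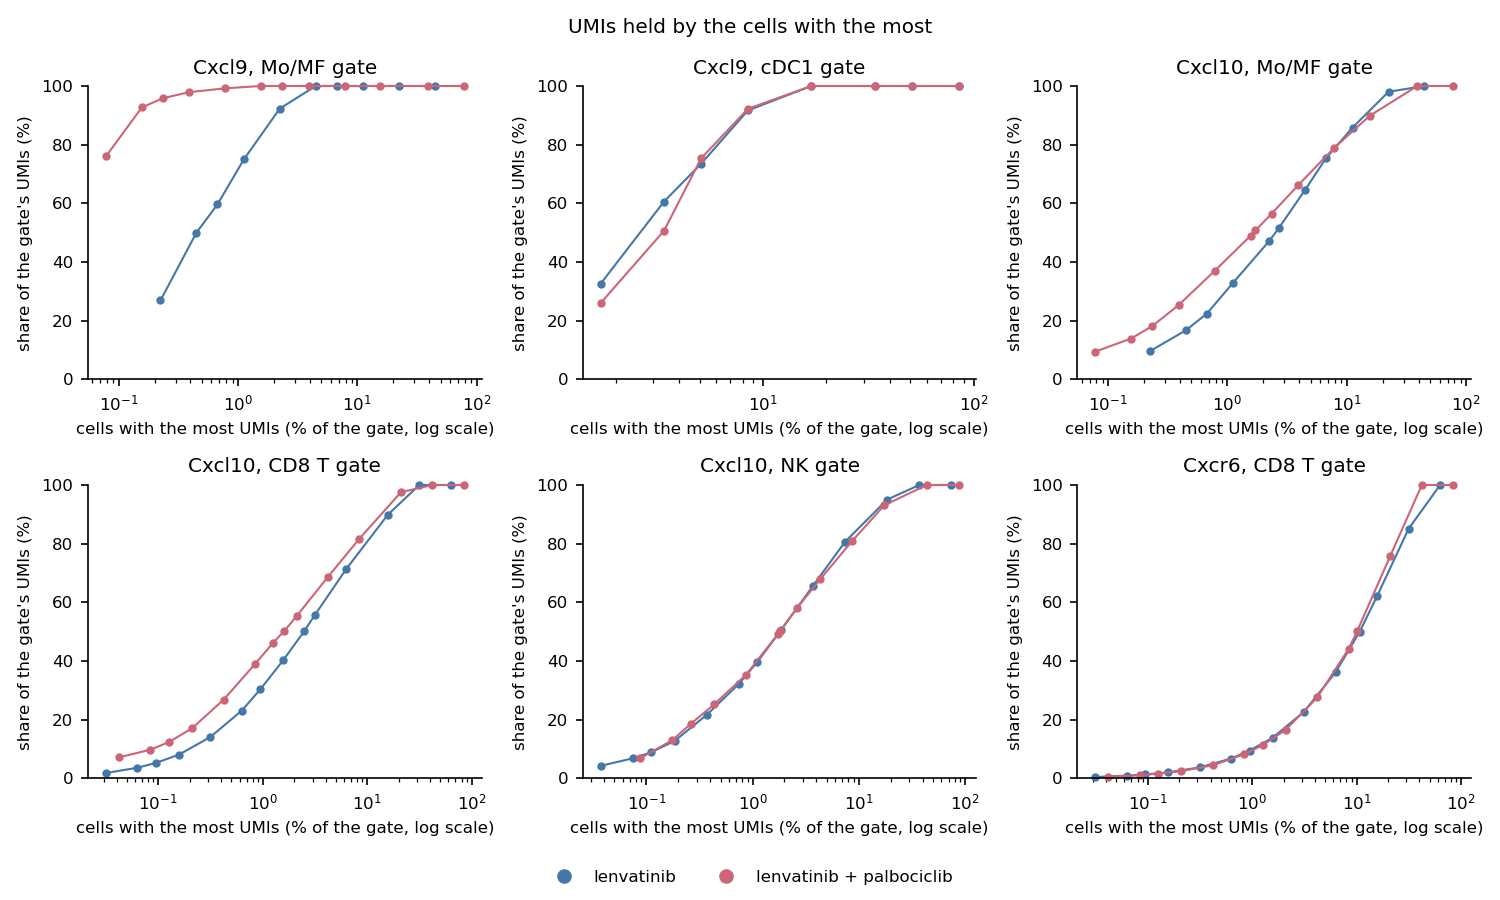
Share (%) of a gate's UMIs of a gene held by the cells with the most, against the percentage of cells counted (log axis), for lenvatinib (blue) and combo (red). For Cxcl9 in the Mo/MF gate the first combo cell held 76.0%, for Cxcl10 in CD8 T cells 79 cells under lenvatinib and 38 under combo held 50%, and Cxcr6 in CD8 T cells was spread over many cells.

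Cxcl10 was not confined to myeloid cells. In the Mo/MF gate it was at 176 CPM (161 to 192) under lenvatinib and 213 CPM (205 to 221) under combo, a ratio of 1.21 (1.10 to 1.33) that turned to 0.970 when each cell's CPM was averaged. In neutrophils it was at 180 CPM (157 to 206) and 164 CPM (155 to 173). The lymphoid gates lay in the same range. CD4 T cells were at 224 CPM (209 to 240) and 137 CPM (124 to 151), other T cells at 197 (191 to 203) and 136 (129 to 142), NK cells at 178 (172 to 183) and 102 (96.0 to 109), and CD8 T cells at 131 (127 to 135) and 136 (130 to 141). Under lenvatinib CD4 T cells and other T cells headed this order, the intervals of neutrophils, NK cells and Mo/MF cells overlapped, those of neutrophils and Mo/MF cells also overlapped with other T cells, and CD8 T cells came last of these. Under combo Mo/MF cells headed it, neutrophils followed, the intervals of the 3 T-cell gates overlapped, and NK cells lay below them. The ratios were 0.611 (0.542 to 0.688) in CD4 T, 0.689 (0.651 to 0.729) in other T, 0.575 (0.536 to 0.617) in NK and 1.04 (0.983 to 1.09) in CD8 T cells.
B cells, the background for ligands, were at 19.5 CPM (13.0 to 28.2) and 36.2 CPM (28.7 to 45.0). A thinned Cxcl10 UMI was present in 2.81% and 3.79% of B cells, against 12.1% and 11.9% of CD8 T, 13.4% and 10.6% of NK, 15.6% and 16.9% of Mo/MF and 12.3% and 9.13% of neutrophil-gated cells. Unthinned, the shares were 5.05% and 5.62% of B, 27.0% and 23.4% of CD8 T and 24.7% and 33.5% of Mo/MF cells. The gene was thus above the B-cell background in T, NK, Mo/MF and neutrophil gates of both libraries. The cDC1 gate was low, at 22.7 CPM (13.7 to 35.4) and 36.1 CPM (26.0 to 48.7), with intervals that overlap those of B cells, and its ratio of 1.59 (0.904 to 2.89) fell to 0.496 when 2 UMIs of the gating gene were required. In pDC the level was 16.3 CPM (11.9 to 21.8) and 106 CPM (96.0 to 116), a ratio of 6.49 (4.77 to 9.03). There 1 combo cell held 126 of 443 UMIs, and without the top cell of each library the ratio was 6.53 (4.53 to 9.71). Genes of other cells moved with it in pDC, with Lyz2 at 189 and 2074 CPM, the neutrophil genes at a summed 3825 and 22459 and the plasma-cell genes at 822 and 3836, and their part in the ratio was not tested.

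Cxcl10 was carried by few cells within each gate. In CD8 T cells the 10% of cells with the most held 80.9% of UMIs under lenvatinib and 84.9% under combo, and 79 of 3171 and 38 of 2373 cells held 50%. CD8 T cells with at least 5 Cxcl10 UMIs, 169 under lenvatinib and 95 under combo, were compared with those that had none. Isg15, an interferon-induced ubiquitin-like modifier, was at 334 CPM in the former and 49.5 in the latter under lenvatinib, and at 276 and 48.8 under combo. Ifit3, an interferon-induced RNA-sensing partner, was at 200 and 22.5 CPM under lenvatinib and 272 and 23.1 under combo. In NK cells the same contrast for Isg15 was 367 and 37.9 CPM under lenvatinib and 127 and 21.9 under combo. Cells rich in Cxcl10 were therefore rich in the interferon-induced genes named here in both libraries. They were also deeper, with median counts of 9343 against 6800 UMIs in CD8 T cells under lenvatinib and 7685 against 5425 under combo, and the part of depth was not tested.

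Cxcl16 was lower under combo in the Mo/MF gate. It was at 104 CPM (92.3 to 116) under lenvatinib, from 300 UMIs, and at 17.8 CPM (15.5 to 20.4) under combo, from 213 UMIs. The ratio was 0.172 (0.143 to 0.206), the intervals of the levels did not overlap, and over the alternatives the ratio ran from 0.149 to 0.337. In cDC1 it was at 43.0 CPM (30.1 to 59.5) and 47.2 CPM (35.6 to 61.5), with a ratio of 1.10 (0.709 to 1.72), so a difference was not detectable there at this depth. A thinned Cxcl16 UMI was present in 9.56% (6.75% to 13.0%) and 3.12% (2.21% to 4.28%) of Mo/MF cells, against 0% and 0.223% of B cells, and unthinned in 18.4% and 9.85% of Mo/MF and 0.798% and 0.432% of B cells. Lymphoid, B, pDC and neutrophil gates were below 4 CPM in both libraries.
The makeup of the gate and the level within its subsets both differed. Mo/MF cells with at least 2 C1qa UMIs made up 14.1% of the gate under lenvatinib and 3.13% under combo. Within these 63 and 40 cells Cxcl16 was at 517 CPM (452 to 588) and 132 CPM (95.1 to 178), a ratio of 0.255 (0.179 to 0.356) that ran from 0.199 to 0.481 over the alternatives. Within the 376 and 1215 cells with no C1qa UMI it was at 28.7 CPM (22.4 to 36.4) and 13.9 CPM (11.8 to 16.2), a ratio of 0.484 (0.362 to 0.651). Levels were lower under combo on both sides of this split, although for cells without C1qa the ratio came to 0.949 under 1 alternative. The split rests on few UMIs of C1qa, so it follows depth as well as expression. Median depths were 4450 and 6824 UMIs in cells with at least 2 C1qa UMIs and 4079.5 and 7091 in cells with none. C1qa in the whole gate was at 688 and 64.0 CPM, so the subsets may not hold like cells in the 2 libraries. Cells with a Cxcl16 UMI had C1qa at 2232 CPM and cells without at 90.2 under lenvatinib, and at 258 and 38.9 under combo. In the Fscn1 gate Cxcl16 was at 339 CPM (285 to 401) under lenvatinib and at 1 UMI under combo. All 137 lenvatinib UMIs lay in the 26 cells with a Ccr7 UMI, at 789 CPM, and the 9 combo cells with a Ccr7 UMI held none. Cells with no Jchain UMI held 98 UMIs in 31 cells under lenvatinib and 1 in 13 cells under combo. Plasma-cell genes summed to 95555 CPM of the gate under lenvatinib and 281145 under combo, and the combo cells had no UMI of Ccl22 or Cacnb3, so these values may not compare like cells.

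Cxcr3 was borne by T cells, NK cells, pDC and cDC1. It was at 101 CPM (91.2 to 112) under lenvatinib and 138 CPM (125 to 152) under combo in CD4 T cells, a ratio of 1.36 (1.18 to 1.57). In CD8 T cells it was at 72.3 CPM (69.1 to 75.6) and 86.3 CPM (82.0 to 90.9), a ratio of 1.19 (1.12 to 1.28). In NK cells it was at 48.9 CPM (46.0 to 52.0) and 64.4 CPM (59.4 to 69.6), a ratio of 1.32 (1.19 to 1.45). Other T cells were at 67.5 CPM (63.8 to 71.4) and 76.5 CPM (71.9 to 81.4), a ratio of 1.13 (1.04 to 1.23). Cxcr3 was thus higher under combo in all 4 lymphoid gates, each by less than 1.5 times. In both libraries the order was CD4 T, CD8 T, other T and NK cells, and under lenvatinib the intervals of CD8 T and other T cells overlapped. pDC were at 49.2 CPM (41.3 to 58.2) and 41.9 CPM (36.0 to 48.6), with an interval that overlaps that of NK cells under lenvatinib, and cDC1 at 34.6 (23.2 to 49.7) and 34.3 (24.5 to 46.8).
In neutrophils, the background for receptors, Cxcr3 was at 10.6 CPM (5.65 to 18.1) and 2.88 CPM (1.81 to 4.37). The thinned share of cells with a Cxcr3 UMI was 17.2% (14.2% to 20.6%) and 23.3% (19.6% to 27.3%) of CD4 T, 14.0% and 16.4% of CD8 T, and 9.33% and 13.6% of NK cells, against 1.58% and 0.294% of neutrophils at median depths of 2619.5 and 5116 UMIs. Unthinned, the shares were 39.1% and 48.8% of CD4 T, 41.5% and 39.8% of CD8 T, 28.2% and 37.9% of NK cells, and 2.79% and 1.81% of neutrophils. The CD8 T share went the other way unthinned, at median depths of 7272 and 5814 UMIs. Of cDC1, 7.55% (2.09% to 18.2%) and 0% (up to 6.16%) had a thinned Cxcr3 UMI, and unthinned 37.3% and 40.7%. Under combo cDC1 were thus set apart from neutrophils only by the CPM level and the unthinned share, at a median depth of 20617 UMIs.
Within CD8 T cells the subsets named here had Cxcr3 ratios nearer to 1 than the whole gate. The ratio was 1.03 (0.872 to 1.21) in cells with a UMI of Pdcd1, the gene of PD-1, and 1.15 (1.04 to 1.28) in cells with a UMI of Gzmk, a granzyme of effector memory cells. In CD4 T cells without Foxp3, the factor of regulatory T cells, Cxcr3 was at 96.0 CPM (83.9 to 109) and 138 CPM (125 to 152), a ratio of 1.44 (1.22 to 1.70), and with Foxp3 at 112 and 135 CPM, from 184 and 25 cells. CD8 T cells with a Cxcr3 UMI had more Mki67, a gene of cycling cells, than those without, at 268 and 140 CPM under lenvatinib and 85.4 and 22.6 under combo. These cells were also deeper, at medians of 8684.5 against 6366 UMIs and 6594 against 5346.

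Cxcr6 was borne by T cells and less by NK cells. It was at 125 CPM (121 to 129) under lenvatinib and 121 CPM (116 to 126) under combo in CD8 T cells, a ratio of 0.966 (0.914 to 1.02). Other T cells were at 128 CPM (123 to 133) and 107 CPM (102 to 113), a ratio of 0.837 (0.783 to 0.894). CD4 T cells were at 122 CPM (111 to 134) and 105 CPM (93.6 to 117), a ratio of 0.860 (0.743 to 0.994) that turned to 1.10 when cells were thinned to 2000 UMIs. NK cells were at 27.4 CPM (25.2 to 29.7) and 35.0 CPM (31.4 to 38.9), a ratio of 1.28 (1.11 to 1.46) that turned to 0.939 when each cell's CPM was averaged. Under lenvatinib the intervals of the 3 T-cell gates overlapped, under combo CD4 T cells overlapped with both other T-cell gates, which did not overlap with each other, and NK cells lay below all T cells in both. Neutrophils were at 4.90 CPM (1.80 to 10.7) and 2.36 CPM (1.40 to 3.73). The thinned share with a Cxcr6 UMI was 22.5% (21.0% to 24.0%) and 21.3% (19.6% to 23.0%) of CD8 T and 5.02% and 5.28% of NK cells, against 0.633% and 0.393% of neutrophils. Unthinned it was 47.3% and 41.8% of CD8 T, 10.5% and 14.7% of NK cells, and 1.52% and 1.33% of neutrophils.

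Against the near-equal Cxcr6 levels of the whole CD8 T gate, 2 of the 3 subsets given here were lower under combo. In Pdcd1-positive cells Cxcr6 was at 295 CPM (277 to 314) under lenvatinib and 203 CPM (189 to 218) under combo, a ratio of 0.689 (0.626 to 0.759). In Gzmk-positive cells it was at 230 CPM (219 to 242) and 175 CPM (165 to 184), a ratio of 0.759 (0.706 to 0.816). The intervals of these 2 subsets did not overlap between the libraries, whereas Mki67-positive cells were at 119 CPM (112 to 127) and 143 CPM (127 to 160), a ratio of 1.19 (1.05 to 1.36). A cell can belong to more than 1 of these subsets.
At the same time the makeup of the gate differed. Pdcd1-positive cells, high in Cxcr6, were 12.7% of CD8 T cells under lenvatinib and 21.6% under combo, and Gzmk-positive cells 30.8% and 50.6%. Mki67-positive cells went the other way, at 22.2% and 7.42%. The subsets rest on single UMIs of their genes, so they follow depth as well as expression. In CD4 T cells without Foxp3 Cxcr6 was at 157 CPM (142 to 174) and 108 CPM (96.0 to 120), a ratio of 0.685 (0.588 to 0.797), while cells with Foxp3 were at 52.6 CPM (40.5 to 67.2) and 56.4 CPM (27.1 to 104) and made up 32.0% and 5.08% of the gate. Other T cells with Trdc, the constant gene of the delta chain, were at 204 CPM (191 to 217) and 199 CPM (182 to 219). NK cells with Itga1 and no Itga2, the integrin pattern of tissue-resident NK cells and ILC1, were at 56.8 CPM (49.8 to 64.5) and 86.5 CPM (74.8 to 99.5), a ratio of 1.52 (1.25 to 1.85) that ran from 1.24 to 2.51 over the alternatives, and cells with Itga2 and no Itga1 were at 5.21 CPM (3.46 to 7.53) and 7.44 CPM (4.07 to 12.5). The Itga1 subset was 18.1% of NK cells in both libraries.

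**Figure D4:**
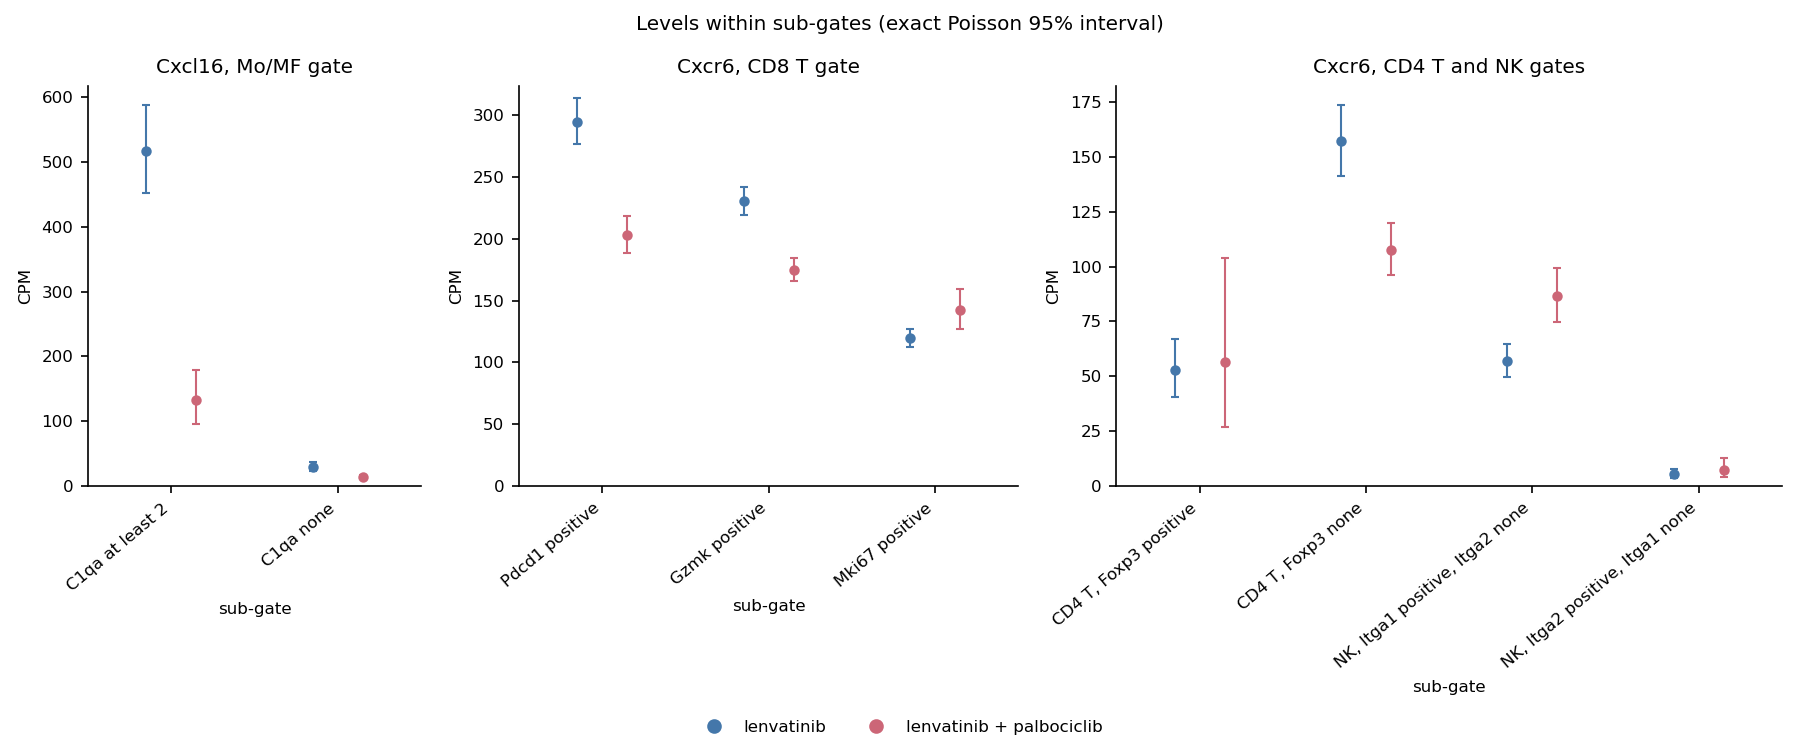
Levels (CPM, linear axis from 0) within subsets of the gates under lenvatinib (blue) and combo (red), with exact Poisson 95% intervals, for Cxcl16 in Mo/MF cells by C1qa and for Cxcr6 in CD8 T, CD4 T and NK cells by marker UMIs. Cxcr6 was 295 and 203 CPM in Pdcd1-positive and 119 and 143 CPM in Mki67-positive CD8 T cells, and Cxcl16 was 517 and 132 CPM in C1qa-high Mo/MF cells.

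For the genes named here, cells with and without Cxcr6 differed in the same direction in both libraries. CD8 T cells with a Cxcr6 UMI numbered 1501 under lenvatinib and 992 under combo, at median depths of 7081 and 5628 UMIs against 7458.5 and 5920 in those without. They had more Itga1, a collagen-binding integrin of resident cells, at 65.4 against 33.1 CPM under lenvatinib and 79.3 against 36.7 under combo. They had more Pdcd1, at 40.2 against 10.8 CPM and 81.1 against 32.2, and less Ccr7, at 98.0 against 190 and 50.4 against 188. The NK cells with a Cxcr6 UMI, 282 and 169, had less Eomes, a T-box factor of conventional NK cells, at 107 against 294 CPM under lenvatinib and 17.7 against 174 under combo. They had more Itga1, at 156 against 66.7 and 137 against 35.7 CPM.
Both receptors were seen together in few cells at 2000 UMIs per cell. Among CD8 T cells with a Cxcr6 UMI 15.1% under lenvatinib and 19.7% under combo had a Cxcr3 UMI, against 13.6% and 15.5% of those without. In other T cells the shares were 12.3% and 17.1% against 14.0% and 15.8%. Detection of one receptor was thus at most slightly more frequent in cells with the other.

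**Figure D5:**
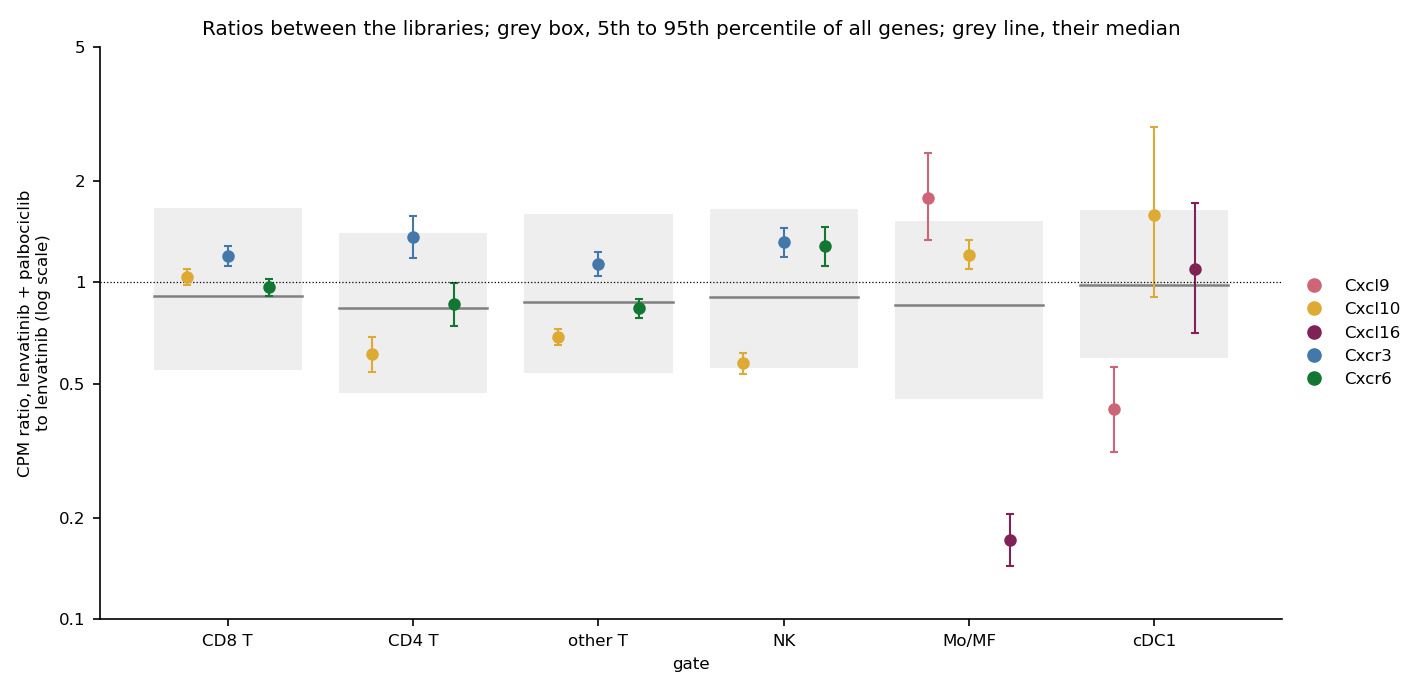
Ratio of combo to lenvatinib CPM on a log axis for each gene in each gate, with exact 95% intervals for counting error, over the 5th to 95th percentile (grey box) and median (grey line) of all genes with at least 50 UMIs in the gate; Cxcl9 and Cxcl16 in lymphoid gates are at background and not drawn. Cxcl16 in the Mo/MF gate (0.172) and Cxcl9 in the cDC1 gate (0.419) lie below the boxes, and Cxcl9 in the Mo/MF gate (1.78) lies above its box.

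Ratios were set against all genes with at least 50 UMIs in the gate over both libraries, and a ratio of 1.5 in either direction was counted. In the Mo/MF gate 4 of the 5 genes had enough UMIs and 3 passed 1.5, Cxcl9 upward and Cxcl16 and Cxcr3 downward, where 26.6% of 9649 genes did. The upward call of Cxcl9 rested on 1 cell, and without the top cells its ratio was 0.586. The Cxcr3 level there was 6.92 and 3.68 CPM, in the range of the neutrophil background. In the cDC1 gate 2 of 4 passed, Cxcl9 downward and Cxcl10 upward, where 17.4% of 4703 genes did. The level of Cxcl10 there overlapped the B-cell background, and its ratio turned to between 0.496 and 0.761 under 3 alternatives. In the NK gate 1 of 4, Cxcl10 downward, passed where 20.6% of genes did, and in CD4 T cells 1 of 3, again Cxcl10 downward, where 27.4% did. In CD8 T cells 0 of 3 and in other T cells 0 of 5 passed, where 19.9% and 22.6% of genes did. In the Fscn1 gate 1 of 2, Cxcl16 downward, passed where 51.9% did, 8.84% of genes upward and 43.0% downward. These shares come from single libraries and carry no test.
The median gene was lower under combo, which shifts every ratio. The median log2 ratio was -0.14 in CD8 T, -0.25 in CD4 T, -0.20 in other T, -0.14 in NK, -0.22 in Mo/MF and -0.03 in cDC1 cells, or ratios of 0.909, 0.838, 0.872, 0.906, 0.858 and 0.981. Relative to it the Cxcr6 ratio of CD8 T cells (0.966) lay above the median gene and those of CD4 T (0.860) and other T cells (0.837) lay near it, whereas Cxcr3 lay above it in all 4 lymphoid gates. Cxcl16 in the Mo/MF gate (0.172) lay below the 5th percentile of genes (0.451), and Cxcl9 in cDC1 (0.419) below that of its gate (0.596).

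The other genes of these axes were taken from a list of 33 genes, of which 32 were measured; Cxcl11, another CXCR3 ligand, was not analysed here. Among genes with at least 50 UMIs, 1 of 32 was at least 1.5 times higher and 3 lower under combo in CD8 T cells, where 6.79% and 13.1% of all genes were. In NK cells 3 of 32 were higher and 9 lower, where 6.64% and 14.0% were. In CD4 T cells 3 of 30 were higher and 7 lower, where 3.48% and 23.9% were, and in other T cells 1 of 32 and 9, where 6.03% and 16.6% were. In Mo/MF cells 0 of 29 were higher and 10 lower, where 5.25% and 21.3% were, and in cDC1 3 of 20 were higher and 3 lower, where 8.04% and 9.38% were. The median ratio of the list was 0.890 in CD8 T, 0.825 in NK, 0.766 in CD4 T, 0.776 in other T and 0.770 in Mo/MF cells, and 1.09 in cDC1.
Among the interferon genes of the list, Isg15 was at 72.4 CPM under lenvatinib and 32.6 under combo in NK and 152 and 88.0 in Mo/MF cells. Ifng, the cytokine that induces Cxcl9, was at 181 and 251 CPM in CD8 T and 120 and 235 in CD4 T cells, a ratio of 1.95 (1.73 to 2.20) in the latter, and at 300 and 282 in NK cells. In other T cells Ifng was at 197 and 194 CPM, with a ratio of 0.987 (0.938 to 1.04). Isg15 was lower under combo in the T, NK, Mo/MF and cDC1 gates, with ratios of 0.802 in CD8 T, 0.547 in CD4 T, 0.525 in other T, 0.451 in NK, 0.577 in Mo/MF and 0.280 in cDC1 cells. The list did not move as 1 set, since the receptor gene Ifngr1 was higher in these gates. Its ratios were 1.37 in CD8 T, 1.29 in CD4 T, 1.27 in other T, 1.35 in NK, 1.24 in Mo/MF and 1.54 in cDC1 cells. By list, of 12 interferon genes 1 was higher and 0 lower by 1.5 times in CD8 T, 1 and 4 in NK, and 0 and 4 in Mo/MF cells. In cDC1 3 of the 8 measured were higher, namely the receptor genes Ifngr1 (1.54) and Ifngr2 (1.74) and the factor Irf1 (1.86), and 2 were lower, Isg15 and Ciita (0.566), the regulator of MHC class II genes. In CD4 T cells 1 of 11 was higher and 2 lower, and in other T cells 0 of 12 and 4. Of 9 trafficking genes 0 were higher and 1 lower in CD8 T cells and 1 higher and 2 lower in NK cells, and of the 8 measured in Mo/MF cells 0 were higher and 4 lower. Among proteases, Adam10, which can shed CXCL16, was at 72.3 and 75.6 CPM in Mo/MF cells, with a ratio of 1.05 (0.899 to 1.22).
Among regulators and homing genes of receptor-bearing cells, Klf2, a factor of recirculating lymphocytes, was at 602 and 1100 CPM in NK and 470 and 1134 in CD4 T cells. Eomes was at 273 and 145 CPM in NK and 42.3 and 9.92 in CD4 T cells, and Tbx21, the T-box factor that drives Cxcr3 in type 1 lymphocytes, was at 60.5 and 37.3 CPM in CD8 T and 96.4 and 56.9 in NK cells. In both gates Cxcr3 was the higher under combo and Tbx21 the lower. Itgae, an integrin gene of intraepithelial T cells, was at 53.2 and 4.80 CPM in CD4 T cells, a ratio of 0.0902 (0.0495 to 0.153). These CD4 T values are of the whole gate, of which cells with Foxp3 made up 32.0% under lenvatinib and 5.08% under combo. The part of this makeup in the values of Klf2, Eomes and Itgae was not tested.

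The genes most like each member over the gates were found by the Pearson correlation of log2(CPM + 1) over 18 points (9 gates in both libraries), among 5163 genes that reached 50 CPM in at least 1 point. The points of a library share its depth and batch, and the values are a description. Cxcl9 was most like Aif1 (r = 0.96), Shtn1 (0.95), Dnajb14 (0.94), Slamf8 (0.93) and Nav1 (0.92), all highest in cDC1 under lenvatinib. Cxcl16 was most like Lima1, Grk3, Nostrin, Nav1 and Slc29a3, with r from 0.91 to 0.93. Cxcl10 was most like Kif1b (0.87), Gbp2 (0.84), Fyb (0.84), Cd200r1 (0.83) and Phlda1 (0.83). Cxcr6 was most like Trbc2, a T-cell receptor constant gene (0.98), Prkcq, Lef1, Ubash3a and Gprin3 (r from 0.96 to 0.97). Cxcr3 was most like Cd226 (0.91), Plaat3, Odc1, Tle5 and Crim1. Between the members r was 0.88 for Cxcr3 with Cxcr6, 0.84 for Cxcl9 with Cxcl16 and -0.37 for the neighbors Cxcl9 and Cxcl10.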

How the data were processed

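Live CD45+ cells of 2 libraries were measured. The deposited values are UMI counts of each gene in each barcode, which the authors did not normalize and made with Cell Ranger (version 5.0.1 per the submitters' processing notes, 6.0.1 per the file headers) on mm10. Gene coordinates come from the GENCODE annotation of GRCm38 and promoters from RefSeq, where 4 of the 5 genes matched. Cells with over 6000 genes or over 25% mitochondrial UMIs, the limits of the study's methods, were removed (308 under lenvatinib and 376 under combo). Cells were gated on marker genes, counts were summed per gate and library, and scaled to the gate's total (CPM). Gates need UMIs, so deeper cells enter them more easily. Exact Poisson, Clopper-Pearson and conditional 95% intervals (Python 3.11.15, numpy 2.4.6, scipy 1.17.1) cover counting error only, and there are no p-values or replicate checks. For shares of cells with a UMI, cells were thinned to 2000 UMIs and shallower ones left out, 82 and 34 in the CD8 T, 80 and 95 in the Mo/MF and 78 and 30 in the neutrophil gate. Doublets were kept. Scrublet in scanpy 1.11.5, at an expected 6%, called 634 (4.46%) and 320 (2.76%) cells, and their removal was an alternative. The other alternatives were stricter gates, other cell filters, another total, the mean over cells, thinning and leaving out top cells. The text names the 5 genes, gating and marker genes, listed partners with at least 50 UMIs and the 5 most alike genes of each. The members and lists were chosen with earlier results of these data known. Some listed genes, and subsets defined with them, are not reported here. The counting and interval steps were tested on simulated data.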

Additional observations from a re-analysis of the deposited data

Results flagged for a closer look

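Several genes had ratios of combo to lenvatinib on opposite sides of 1 in different gates, with intervals for counting error that did not include 1, and with 1 library per group the differences between gates were not tested. Cxcl9 had a ratio of 1.78 in the Mo/MF gate and 0.419 in the cDC1 gate, but the former rested on 1 cell and turned to 0.586 without the top cells, and to 0.863 with cell means and 0.898 when thinned to 1000 UMIs, the same side as cDC1. Cxcl10 had a ratio of 1.21 in the Mo/MF gate, against 0.611 in CD4 T, 0.689 in other T and 0.575 in NK cells, and the Mo/MF ratio turned to 0.970 with cell means. Cxcr6 had a ratio of 1.28 in NK cells, against 0.860 in CD4 T and 0.837 in other T cells, and the NK ratio turned to 0.939 with cell means and the CD4 T ratio to 1.10 when thinned to 2000 UMIs.

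Cells with gating genes of both lymphoid and myeloid cells entered no gate, yet held a share of the ligands. They held 32.2% of Cxcl9 UMIs under lenvatinib, of which 105 of 155 lay in the 53 cells with Xcr1, and 17.5% and 13.7% of Cxcl16 UMIs under lenvatinib and combo. Of these cells 85 of 562 and 102 of 555 were called doublets. The cell with the most Cxcl9 of the lenvatinib library, with 81 UMIs, was among them, held 10 UMIs of Xcr1 and 1 of Cd3e, and was not called a doublet.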

How the results depend on the processing

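Of 177 values of the 17 ratios of whole gates under the alternatives, 141 lay within the main interval and 165 kept their side of 1, and 6 turned to the other side of 1 where the main interval did not include 1. Of 102 values of 10 ratios in subsets (Cxcl16, Cxcr3 and Cxcr6) 86 stayed within it and all 102 kept their side. These 10 were a chosen part of the subset ratios, and none of their main intervals included 1. Subset ratios nearer to 1, such as Cxcr6 in other T cells with Trdc at 0.979 (0.874 to 1.10), were not run. The tally of subsets therefore cannot be set against that of whole gates. Of 350 values of 70 shares of a gene's UMIs held by a gate, 271 lay within the main interval and 79 moved outside it. The cause of these moves was not tested. With the mean of each cell's CPM, Cxcl10 in Mo/MF turned to 0.970, Cxcl9 in Mo/MF to 0.863 and Cxcr6 in NK to 0.939, and Cxcl16 in Mo/MF was 0.263, Cxcl9 in cDC1 0.186 and Cxcr6 in CD8 T 0.868. Thinned to 2000 UMIs, Cxcr6 in CD4 T turned to 1.10, and the ratio was 1.32 for Cxcl9 and 1.04 for Cxcl10 in Mo/MF, 0.761 for Cxcl10 in cDC1, 3.09 for Cxcl10 and at most 0.0732 for Cxcl16 in the Fscn1 gate, 0.317 for Cxcl16 in Mo/MF, 0.887 for Cxcr6 in CD8 T and 0.941 in other T. Thinned to 1000 UMIs, Cxcl9 in Mo/MF turned to 0.898, and the ratio was 0.140 for Cxcl9 and 0.655 for Cxcl16 in cDC1, 0.337 for Cxcl16 in Mo/MF, at most 0.146 for Cxcl16 in the Fscn1 gate, 1.83 for Cxcr3 and 0.9996 for Cxcr6 in CD4 T, 0.837 for Cxcr6 in CD8 T and 0.905 in other T. With 1 more marker per gate the ratio of Cxcl10 was 1.70 in Mo/MF and 0.557 in cDC1, and in the Fscn1 gate that of Cxcl9 was at most 0.476 and of Cxcl16 at most 0.0208. With 2 UMIs of the gating gene, Cxcl9 and Cxcl10 in cDC1 were 0.283 and 0.496 and Cxcl9 in the Fscn1 gate at most 0.430. With at most 5000 genes and 10% mitochondrial UMIs, Cxcl9 in Mo/MF was 3.07. Of the alternatives chosen after seeing the data, leaving out the top cell turned Cxcl9 in Mo/MF to 0.586, gating myeloid cells whatever their Cd3e and Ncr1 gave Cxcl16 in Mo/MF 0.207, and leaving out cells with Jchain gave Cxcl10 3.30 and Cxcl9 at most 0.454 in the Fscn1 gate. For Cxcl9 in Mo/MF cells without C1qa, a ratio of 9.95 came to 3.61 without the top cell of each library, 1.53 without the top 2 and 0.582 without the top 2 combo cells alone. No value could be had for Cxcl9 in the Fscn1 gate with cell means, thinning or its top cell left out, or for Cxcl10 in cDC1 thinned to 1000 UMIs. Cxcr3 stayed above 1 in all 4 lymphoid gates and Cxcl16 in Mo/MF below 1 under each alternative run. No paired analysis was possible because each group had 1 library.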
